A study of Rattus norvegicus with 6 samples.

Results

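The genes described here are 8 that handle arginine and polyamines: Slc7a2, Arg1, Arg2, Nos2, Odc1, Srm, Sms and Sat1. They were chosen by name, 8 of the 28615 gene names shared by the time-course tables and 8 of the 25199 names of the injected cords, and each was found in every table. The choice was made with earlier results of these data known. Slc7a2 carries cationic amino acids such as arginine into the cell. Arginase 1 (Arg1, cytosolic) and arginase 2 (Arg2, mitochondrial) split arginine into ornithine and urea, while inducible nitric oxide synthase (Nos2) turns the same substrate into nitric oxide and citrulline. Ornithine decarboxylase (Odc1) makes putrescine from ornithine, spermidine synthase (Srm) and spermine synthase (Sms) extend putrescine to spermidine and then spermine, and spermidine/spermine acetyltransferase (Sat1) marks polyamines for export or back-conversion. In injured tissue Arg1 and Nos2 are widely used as opposite markers of macrophage state, and both enzymes draw on arginine.

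Messenger RNA was counted in single cells of spinal cord in 6 droplet libraries, 1 per group. The labels give rats of strain SD aged 6 to 8 weeks and 5 animals per condition, and do not say how the animals share a library. The time course holds an intact cord and cords collected 1, 3 and 7 days after a crush at thoracic level 10. The injected cords were crushed in the same way, received MPSS (10 mg/ml) or its carrier PBS in the cord at day 3 and were collected 2 weeks after injury. All 6 came from a 5-mm piece of cord digested with collagenase and trypsin, strained through 40-µm mesh and freed of erythrocytes, so cells lost in those steps were not seen. The treatment label of the intact library also names the crush, and its title, which calls it intact, was followed. The time-course tables write gene names in the mouse form although the labels name the rat. By their titles the injected libraries were re-analyzed, and their levels were not set against the time course.

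The libraries held 1377 to 9263 cells after filtering, with medians of 3090 to 10417 unique molecular identifiers (UMIs, counted molecules) per cell and median mitochondrial shares between 2.28 and 4.07%. Cells were sorted into classes by the marker genes of each cell. Phagocytes, the cells led by genes such as Csf1r, Cd68 and C1qa, numbered 855 in intact cord, 4114 at day 1, 6483 at day 3, 4990 at day 7, 700 with PBS and 995 with MPSS. Within them, cells whose microglia markers (P2ry12, Tmem119 and others) outweighed their monocyte and macrophage markers (Ccr2, Vcan, F13a1 and others) by a factor of 2 are called microglia, the opposite case macrophages, and the rest are called between. From intact to day 7 there were 795, 1487, 2928 and 3988 microglia, and 36, 2262, 2369 and 308 macrophages. The median microglia-marker score (mean log2 level per marker) of the microglia was 3.00 in intact cord and 1.19 at day 1. In the PBS and MPSS cords it was 0.471 and 0.492, so the name rests there on weak marker levels. Cells near the dividing ratio made up 1.40% of phagocytes in intact cord, 4.52% at day 1, 12.6% at day 3 and 10.5% at day 7. Any pair of libraries shared at most 1.67% of the smaller library's cell barcodes.

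Levels are UMIs per 1000000 UMIs of all cells of a class in a library (CPM), and a range in brackets is a 95% interval. It covers counting error and not the spread between animals. Each group being a lone library, differences between groups could not be tested. A difference is counted as 2-fold higher or lower by size alone, among genes with at least 10 UMIs over both groups. Levels were compared within a gene and not between genes.

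Within the phagocytes of day 1, Arg1, Arg2, Slc7a2 and Nos2 were higher in macrophages than in microglia, while Odc1 and Srm, which act after arginase, were lower in macrophages. Outside the phagocytes, Arg2 was also found in neutrophils, Nos2 in endothelium and Slc7a2 in astrocytes and fibroblasts. Odc1 and Srm were high in fibroblasts and oligodendrocyte precursors and, for Odc1, in astrocytes and endothelium. Promoter sequence was at hand for 4 of the 8 genes. Those of Srm and Odc1 are shown because these genes shared the day 1 peak. The windows run from 250 bases before the transcription start to 50 after it, in the rat reference of RefSeq (build GRCr8), at chr5:164308752-164309051 on the plus strand for Srm and at chr6:46058415-46058714 on the plus strand for Odc1. Capitals mark the E-box CACGTG, which reads alike on both strands.
Srm: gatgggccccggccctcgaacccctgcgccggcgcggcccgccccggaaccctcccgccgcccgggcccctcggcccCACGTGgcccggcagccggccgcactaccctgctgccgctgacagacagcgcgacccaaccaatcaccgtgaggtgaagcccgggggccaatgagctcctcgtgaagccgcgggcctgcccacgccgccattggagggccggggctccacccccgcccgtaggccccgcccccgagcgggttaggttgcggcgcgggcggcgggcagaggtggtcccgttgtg
Odc1: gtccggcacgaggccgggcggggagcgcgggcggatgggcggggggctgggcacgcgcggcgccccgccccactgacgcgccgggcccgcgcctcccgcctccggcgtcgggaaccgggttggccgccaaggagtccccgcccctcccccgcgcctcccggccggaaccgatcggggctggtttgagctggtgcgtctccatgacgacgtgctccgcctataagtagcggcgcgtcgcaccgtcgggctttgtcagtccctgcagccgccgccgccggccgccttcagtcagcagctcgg
The Srm window holds 1 such hexamer, at base 78, and the Odc1, Sms and Sat1 windows hold none. Of all 33469 rat promoter windows of this length, 2148 (6.42%) hold it, and a match is a description of letters only.

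Among the phagocytes of day 1, Slc7a2 was found mainly in the macrophages, and at days 3 and 7 in the cells between them and microglia as well. Its level in macrophages was 0 in intact cord (0 UMIs in 36 cells), 21.6 CPM (19.0 to 24.4) at day 1, 4.29 at day 3 and 5.79 at day 7. In microglia it was 1.78, 0.370, 0.499 and 1.37 CPM at the same times, on 5, 6, 12 and 24 UMIs. The cells between held 2.19 CPM at day 1, 5.54 at day 3 and 10.2 (7.36 to 13.8) at day 7. Macrophages thus stood above microglia at each time after injury, 58.3-fold (26.4 to 161) at day 1 and 8.59-fold (4.69 to 17.2) at day 3. From day 1 to day 3 the macrophage level was 5.04-fold lower (3.95 to 6.48). Except at day 1, the highest levels lay outside the phagocytes. Astrocytes and ependymal cells held 25.2, 18.0, 18.2 and 41.1 CPM from intact to day 7. Fibroblasts held 17.6, 16.9 and 57.03 CPM at days 1, 3 and 7. At day 1 the macrophages, at 21.6 CPM, stood above both of these classes, with overlapping intervals.

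Arg1 was concentrated in the macrophages of days 1 and 3. Summed over all phagocytes it was 39.4 CPM in intact cord (32.7 to 47.1), while days 1, 3 and 7 had 2370 (2352 to 2387), 963 (955 to 971) and 19.4 (17.7 to 21.3). Day 1 was thus the highest and day 7 the lowest of the 4 libraries. In macrophages the levels of days 1, 3 and 7 were 5873 CPM (5829 to 5918), 2084 (2065 to 2104) and 73.1 (59.5 to 88.8). This was 2.82-fold lower at day 3 than at day 1 (2.78 to 2.85) and a further 28.5-fold lower at day 7 (23.5 to 35.0). The intact value rests on few cells: the 36 macrophages of intact cord held 117 of the 120 phagocyte UMIs, and 57.3% of those came from 1 cell. Without the highest cell of each library, day 7 stood at intact level, with a log2 ratio of 0.05.

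The share of cells with an Arg1 UMI was taken after each cell was thinned to 1000 UMIs, because libraries and classes differ in depth. It was 80.9% (79.2 to 82.5) of macrophages at day 1, 51.1% at day 3 and 4.55% at day 7, and unthinned 88.8, 73.9 and 11.4%. Arg1 at day 1 was therefore a property of most macrophages and not of a few bright cells. Between-class cells held 828 CPM at day 1 and 833 at day 3, which did not differ beyond counting error. Neutrophils followed with 315 CPM at day 1 and 189 at day 3. At day 1 pericytes held 557 CPM, but 97.7% of it was in 1 cell of 35.

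Microglia held little Arg1 at any time: 0.714 CPM in intact cord on 2 UMIs, 94.9 (90.2 to 99.7) at day 1, 37.8 at day 3 and 5.36 at day 7. Macrophages were 61.9-fold above them at day 1 (58.9 to 65.2), 55.1-fold at day 3 and 13.6-fold at day 7. RNA set free from other cells gives UMIs in droplets of any class, so the level in classes that should lack the gene was set beside it. At day 1 endothelium held 52.2 CPM, fibroblasts 66.4, and astrocytes with ependymal cells 36.0. At day 1 the microglial level was 1.62% of that in macrophages, against a median of 4.95% for 25 phagocyte and macrophage markers, of which 4 lay at or below Arg1. Microglia hold some of these markers themselves, C1qa at 919% of the macrophage level, so the median does not measure free RNA there. The microglial level was above that of endothelium at day 1 but of the same order, and the part of free RNA in it was not tested. After thinning, 5.78% (4.65 to 7.09) of day 1 microglia, 3.19% of endothelial cells and 6.56% (3.43 to 11.2) of fibroblasts had an Arg1 UMI. Unthinned, at median depths of 11174 and 4364 UMIs, the shares were 33.4% of microglia and 16.2% of endothelial cells. Neutrophils stood at 5.35% of the macrophage level, where the markers' median was 23.3%. They too hold some of the markers, Ly6c2 at 456.5%, so this median does not measure free RNA either.

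**Figure D1:**
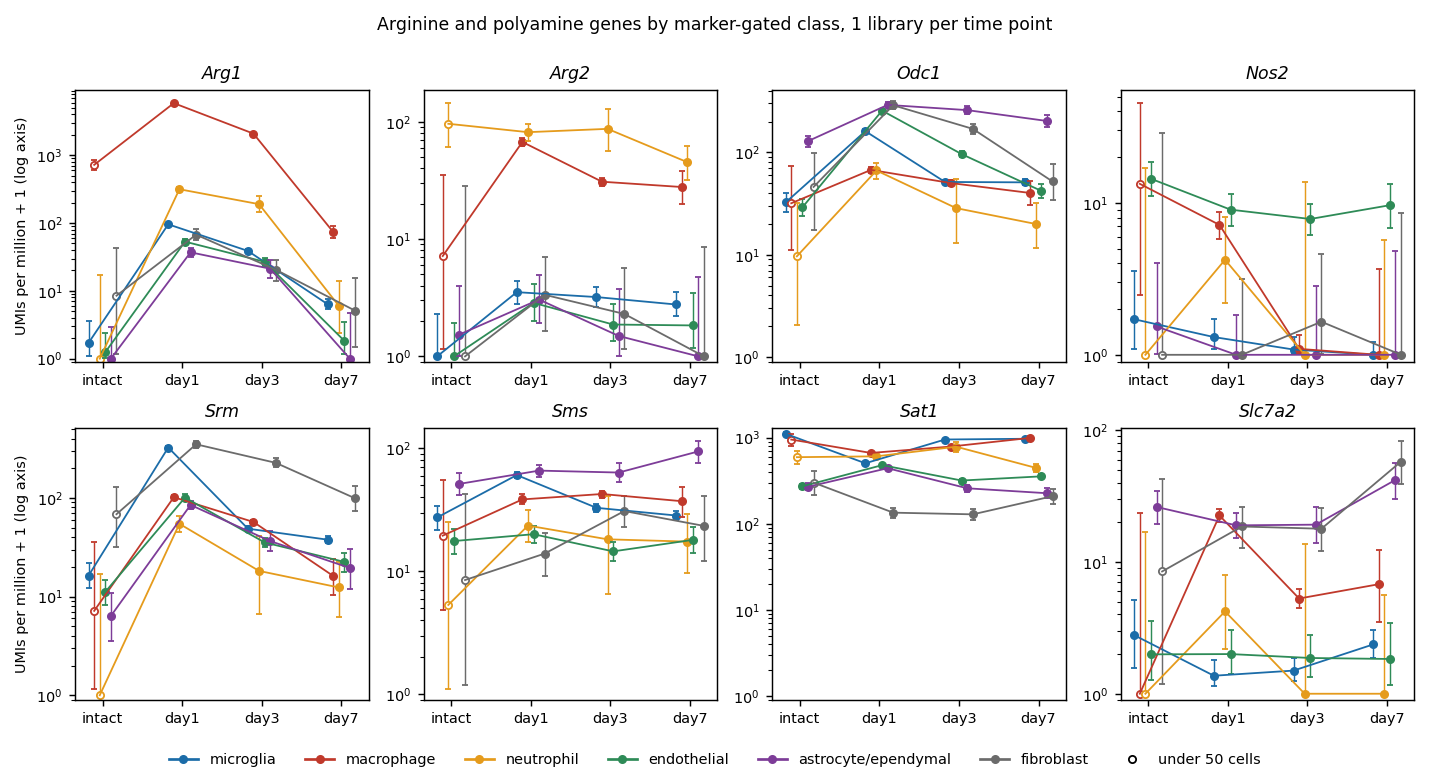
Level of each of the 8 genes (UMIs per 1000000 of the class sum, plus 1, log axis) in 6 marker-gated classes of the intact, day 1, day 3 and day 7 libraries. Points are 1 library each, bars are 95% Poisson intervals and open points are classes with under 50 cells; Arg1 peaks in macrophages at 5873 CPM at day 1, while Srm in microglia goes from 15.3 to 323 and back to 47.8 CPM.

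Arg2 belonged to neutrophils and macrophages. In neutrophils it was 95.1 CPM (59.6 to 144) in intact cord, from 22 UMIs in 46 cells, and 80.5, 86.0 and 44.3 at days 1, 3 and 7. These intervals overlap except that day 7 (30.8 to 61.5) lies below day 1 (68.1 to 94.5). In macrophages Arg2 was 66.2 CPM (61.6 to 71.1), 29.8 (27.5 to 32.2) and 26.8 (18.9 to 36.9) at days 1, 3 and 7. The ratio of day 7 to day 3 was 0.898 (0.626 to 1.25). In macrophages of 4000 to 8000 UMIs, however, Arg2 was 33 CPM at day 3 and 10.9 at day 7, the latter on 7 UMIs. Microglia held 0, 2.53, 2.20 and 1.77 CPM. Day 1 macrophages were 26.2-fold (19.1 to 36.8) above microglia.

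Within the day 1 macrophages, cells with and without an Arg1 UMI after thinning were compared for the other genes. The 1830 cells with Arg1 held more Slc7a2 than the 432 without, 24.6 against 6.94 CPM, a ratio of 3.54 (1.14 to 17.8) that rests on 45 and 3 UMIs. Arg2 was 1.57-fold higher (1.01 to 2.55) and Srm 1.69-fold higher (1.07 to 2.77) in them. Odc1 (ratio 1.18, 0.770 to 1.87) and Sat1 (0.954, 0.843 to 1.08) had intervals that hold 1. At day 3, with 1210 cells against 1159, the intervals of Arg2, Slc7a2, Srm and Odc1 held 1 and Sat1 was slightly lower with Arg1 (0.878, 0.805 to 0.957). Both kinds of cell come from the same library and share its free RNA.

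Nos2 was scarce in phagocytes and lay mostly in the macrophages of day 1. Phagocytes held 4 Nos2 UMIs in intact cord, 78 at day 1, 8 at day 3 and 0 at day 7. Of the 78 at day 1, 71 were in macrophages (6.16 CPM, 4.81 to 7.77) and 5 in microglia (0.308 CPM), a ratio of 19.96 (8.17 to 63.4). They lay in 52 cells, of which 14 had at least 2 UMIs and 1 had 5. At day 3 the macrophages held 2 UMIs, a level 65.3-fold lower (17.4 to 550). At day 7, 0 of 4990 phagocytes had a UMI, which allows a share of cells with a UMI of up to 0.0601% and sets no limit on cells that express the gene. Endothelium, planned as the class that should lack Nos2, held 8.01 CPM (6.05 to 10.4) at day 1 and could not serve as that comparison. Astrocytes and ependymal cells, taken in its place, held 1 UMI in intact cord and 0 at days 1, 3 and 7.

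Most cells with Nos2 at day 1 also held Arg1. Among the 4114 phagocytes of day 1, 47 had both, 5 had Nos2 alone, 2606 had Arg1 alone and 1456 had neither. Arg1 was thus present in 90.4% (79.0 to 96.8) of the cells with Nos2 and in 64.2% (62.7 to 65.6) of those without. Within macrophages, where Arg1 is common, the gap was smaller: 43 of 45 cells with Nos2 had Arg1, 95.6% (84.8 to 99.5), against 88.7% (87.3 to 90.0) of the rest. The product of the 2 shares gives 40.0 such cells in macrophages, where 43 were counted, and 33.5 in all phagocytes, where 47 were counted.

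Thinning to 1000 UMIs a cell left 12 phagocytes of day 1 with both genes and 3 with Nos2 alone, so that 0.292% had both. Among the thinned cells, Arg1 was present in 80.0% (51.9 to 95.7) of those with Nos2 and 48.3% of those without. Of the 15 thinned phagocytes with Nos2, however, 13 were macrophages, a class in which 1830 thinned cells had Arg1 and 432 had none. The pooled gap therefore cannot be separated from the class of the cells. With at least 2 UMIs of each gene and no thinning, 14 cells of day 1 had both and 0 had Nos2 alone at that level. All 14 were macrophages, the class in which most cells held Arg1, so this count too cannot be separated from the class. At day 3, 5 of the 8 cells with Nos2 also had Arg1, which is 0.0771% of phagocytes unthinned. After thinning there were 0 of 6483, which allows up to 0.0463% of cells with UMIs of both genes among 1000 and says nothing of deeper counts. In intact cord 1 of 3 cells with Nos2 had Arg1.

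Endothelium held Nos2 in each library of the time course. It had 54, 56, 55 and 31 UMIs from intact to day 7, or 13.4 CPM (10.1 to 17.5), 8.01 (6.05 to 10.4), 6.82 (5.14 to 8.88) and 8.64 (5.87 to 12.3). At day 1, 52 of 1192 endothelial cells (4.36%) had a Nos2 UMI, seldom more than 1 a cell. Arg1 UMIs were present in 23.1% of those and 15.9% of the other endothelial cells, before thinning.

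**Figure D2:**
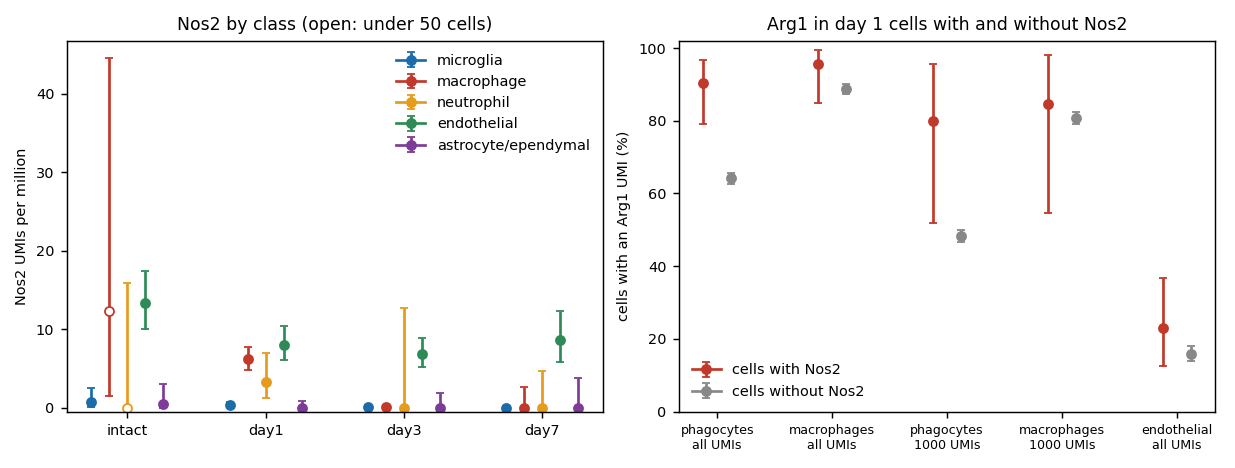
Left, Nos2 level (UMIs per 1000000) by class and library in the time course, with 95% Poisson intervals and open points for classes with under 50 cells; right, percent of day 1 cells with an Arg1 UMI among cells with and without Nos2, with exact 95% binomial intervals, unthinned or thinned to 1000 UMIs. Endothelium keeps 6.82 to 13.4 CPM in the 4 libraries, and Arg1 is present in 90.4% of phagocytes with Nos2 against 64.2% without. Within macrophages the gap is smaller.

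Odc1 and Srm had their phagocyte peak at day 1 and in the microglia. Odc1 in microglia was 31.4 CPM in intact cord (25.2 to 38.7), and 160 (154 to 166), 50.4 (47.6 to 53.3) and 49.9 (46.7 to 53.3) at days 1, 3 and 7. Day 1 was 5.10-fold above intact (4.12 to 6.38), and day 3 was 3.18-fold below day 1. In macrophages Odc1 was 66.3 CPM (61.7 to 71.2) at day 1, 49.1 at day 3 and 39.1 at day 7. Microglia therefore stood 2.41-fold (2.23 to 2.62) above macrophages at day 1, while at day 3 the ratio of macrophages to microglia was 0.976 (0.898 to 1.06).

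The excursion of Srm was wider. In microglia it was 15.3 CPM in intact cord (11.1 to 20.7), and 323 (315 to 332), 47.8 (45.1 to 50.6) and 36.7 (34.0 to 39.7) at days 1, 3 and 7. Day 1 was 21.1-fold above intact (15.6 to 29.1) and 6.77-fold above day 3 (6.35 to 7.22). When cells were clustered without reference to the gate, the microglia of intact cord and of day 1 lay largely in clusters of their own. Of the 763 cells of the main intact cluster 756 came from intact cord, and of the 1791 of the main day 1 cluster 1768 came from day 1. Microglia of days 3 and 7 shared clusters, the largest with 1911 and 2085 of their cells. Macrophages held 101 CPM (95.04 to 107) at day 1, 56.0 at day 3 and 15.2 at day 7. Srm was thus 3.21-fold higher (3.01 to 3.42) in microglia than in macrophages at day 1, and at day 3 it was slightly higher in macrophages (1.17-fold, 1.08 to 1.27). Day 1 microglia were also deeper, with a median of 11174 UMIs a cell against 4619. Among cells of 4000 to 8000 UMIs, 1293 macrophages and 248 microglia, the macrophage to microglia ratio was 0.354 (0.313 to 0.401) for Srm, 0.387 (0.327 to 0.458) for Odc1 and 36.0 (31.8 to 41.0) for Arg1. At day 3 the ratio in such cells was 1.34 for Odc1 and 1.60 for Srm.

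In endothelium and in astrocytes with ependymal cells both genes were likewise higher at day 1 than in intact cord. Odc1 in endothelium was 28.0, 255, 95.03 and 41.0 CPM from intact to day 7, with day 1 at 9.08 times intact (7.51 to 11.1). Astrocytes and ependymal cells held 128, 290, 257 and 202 CPM, and stayed above their intact level (112 to 145) at day 7 (174 to 232). Fibroblasts held 287 CPM at day 1, 169 at day 3 and 50.9 at day 7. Srm had its highest level of 31 class sums in the fibroblasts of day 1 (349 CPM, 321 to 378), whose interval overlaps that of the day 1 microglia and of the day 1 oligodendrocyte precursors (314 CPM, 270 to 364). Endothelium held 10.2, 99.7, 34.4 and 21.5 CPM of Srm from intact to day 7. Neutrophils held 65.5 CPM of Odc1 at day 1, near the 66.3 of day 1 macrophages, and were low at days 3 and 7, with 27.5 and 19.0 CPM.

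The opposed order of the genes was graded across the marker balance of the cells. Phagocytes of day 1 were put in 6 bins of the log2 ratio of their macrophage to microglia marker scores, with 1100, 431, 156, 152, 330 and 1945 cells from the microglial to the macrophage end. Arg1 was 57.1, 162, 857, 1124, 4297 and 6171 CPM over these bins, higher in each bin than in the bin before. Arg2 went the same way, from 1.88 to 71.8 CPM. Srm ran downward, at 333, 298, 237, 124, 144 and 93.3 CPM, with the 1 step up from the fourth to the fifth bin inside the counting error. Odc1 went from 156 to 61.2 CPM. At day 3 Arg1 still climbed with the balance, from 23.0 to 2544 CPM, whereas Srm stayed between 43.1 and 75.5 CPM and Odc1 between 45.6 and 75.7 CPM. Median depth also ran down the day 1 bins, from 10834 to 4542 UMIs a cell, and its part in the trend is shown only by the depth-limited ratios above.

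**Figure D3:**
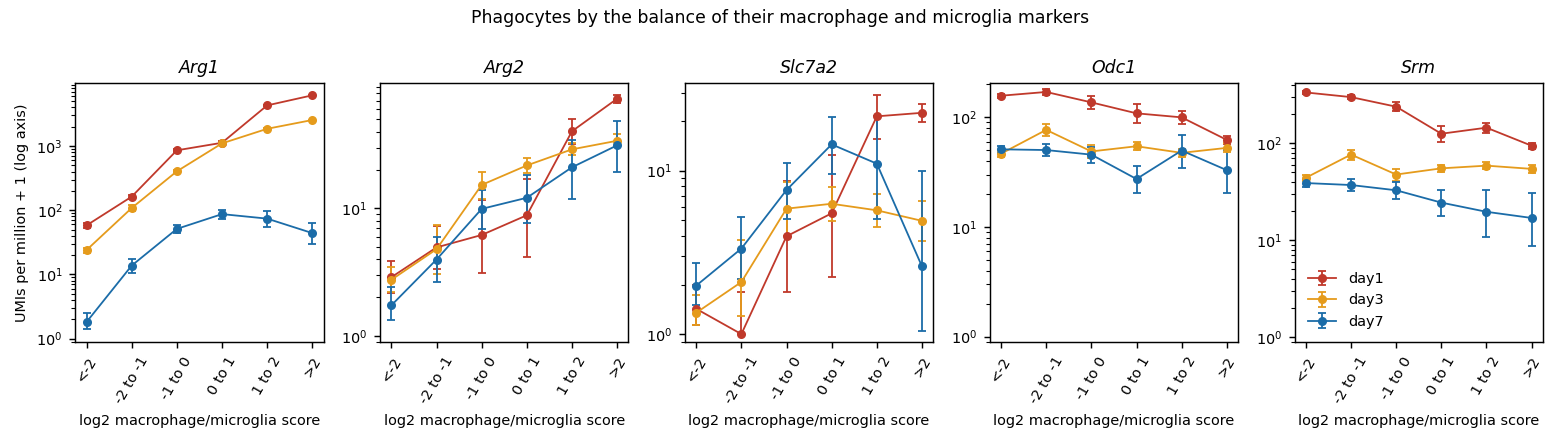
Levels (UMIs per 1000000 plus 1, log axis) of 5 genes in phagocytes of days 1, 3 and 7, binned by the log2 ratio of macrophage to microglia marker scores, with 95% Poisson intervals. At day 1 Arg1 goes from 57.1 to 6171 CPM along the axis while Srm goes from 333 to 93.3 CPM.

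Sms, which turns spermidine into spermine, had a day 1 peak in microglia. Over all phagocytes it was 26.6 CPM in intact cord (21.1 to 33.0), and 50.5 (48.0 to 53.1), 37.3 (35.7 to 38.9) and 29.3 (27.2 to 31.6) at days 1, 3 and 7. Microglia held 26.4 CPM in intact cord and 59.7 at day 1, 2.26-fold more (1.78 to 2.90). Macrophages had 37.5 CPM at day 1, and at day 3 the order was the other way, 31.9 and 41.6 CPM. Among day 1 cells of 4000 to 8000 UMIs the macrophage to microglia ratio of Sms was 0.859 (0.65 to 1.15). The day 1 gap between these classes was therefore within counting error at matched depth. At day 3 the ratio in such cells was 1.895 (1.58 to 2.28). Oligodendrocyte precursors held 114, 87.2 and 88.2 CPM at days 1, 3 and 7, and astrocytes with ependymal cells 65.0, 62.6 and 93.6. The last is 1.86-fold their intact level (1.38 to 2.501). No neighbours in the order of the 31 class sums differed beyond their intervals.

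Sat1, the catabolic enzyme, stood apart from the other members in that its phagocyte level was lowest at day 1. It was 1096 CPM in intact cord (1059 to 1133), and 560 (552 to 569), 860 (853 to 868) and 983 (970 to 996) at days 1, 3 and 7. Day 1 was 1.96-fold below intact (1.89 to 2.03), just short of the 2-fold mark. Microglia held 1108 CPM in intact cord and 503 at day 1, while macrophages held 663 at day 1, 787 at day 3 and 992 at day 7. Among day 1 cells of 4000 to 8000 UMIs the macrophage to microglia ratio of Sat1 was 0.972 (0.907 to 1.04), so the day 1 gap between these classes was not seen at matched depth. The order of day 3 and day 7 against intact depends on the scaling. By totals they were 1.27-fold and 1.12-fold lower in phagocytes, and by TMM, which puts the log2 ratios to intact 0.39, 0.63 and 0.72 higher at days 1, 3 and 7, they were higher by 0.28 and 0.56 on the log2 scale. Endothelium and astrocytes with ependymal cells did not share the day 1 low: endothelium held 271, 478, 317 and 354 CPM from intact to day 7, and the astrocytes 268, 440, 257 and 225. Fibroblasts had the lowest levels of the 31 sums, with 133 and 128 CPM at days 1 and 3.

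In phagocytes the 8 genes were also counted against all genes measured, by fold size alone. They were chosen with earlier results of these data known, so the counts are a description and not a test. These sums mix classes in different parts, with 36 macrophages among 855 phagocytes in intact cord and 2262 among 4114 at day 1. By themselves the sums cannot tell a change within cells from a change of their mixture. At day 1 against intact, Arg1, Arg2, Odc1, Srm and Slc7a2 were at least 2-fold higher, 5 of 8, and 0 were lower, where 13.7% of all measured genes were higher and 26.6% lower. Arg2 had 1 UMI in intact phagocytes, so its ratio of 83.2 has an interval from 14.9 to 3290. Within classes Slc7a2 was lower in day 1 microglia (ratio 0.207, 0.0527 to 0.859, on 6 and 5 UMIs) and at least 1.17-fold higher in macrophages. At day 3 against intact, Arg1, Arg2 and Srm were higher and Nos2 (8 UMIs against 4) lower, against 9.39% and 30.9% of all genes. At day 7, Arg2 and Srm were higher and Arg1 lower of 7 measured, against 6.47% and 29.7%. Under TMM the members higher at days 1, 3 and 7 numbered 7, 6 and 4, beside 21.2%, 19.3% and 16.1% of all genes. Those lower numbered 0, 1 and 0, beside 18.6%, 16.6% and 10.8%, so that Arg1 was no longer 2-fold lower at day 7.

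From day 1 to day 3 5 of the 8 had lower levels: Arg1, Odc1, Nos2, Srm and Slc7a2 were at least 2-fold lower and 0 higher, beside 13.1% and 9.5% of all genes. From day 3 to day 7 Arg1 and Arg2 were lower and 0 of 7 higher, beside 7.35% and 5.99%. Within classes the day 7 to day 3 ratio of Arg2 was 0.898 (0.626 to 1.25) in macrophages and 0.803 (0.498 to 1.27) in microglia. In the cells between it was 0.458 (0.309 to 0.660). Macrophages against microglia had Arg1, Arg2, Nos2 and Slc7a2 higher and Odc1 and Srm lower at day 1, where 12.3% of all genes were higher and 26% lower. At day 3, Arg1, Arg2 and Slc7a2 were higher and 0 of 7 lower, beside 8.4% and 20.3%. Comparisons with a library in common share its cells and its counting error.

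A list of 39 further genes of arginine, citrulline, proline and polyamine metabolism, arginine transport and the tetrahydrobiopterin cofactor of nitric oxide synthase was followed too. This list was likewise chosen with earlier results of these data known. In phagocytes at day 1 against intact, 35 were measured. Of these 7 (20%) were higher and 7 (20%) lower by 2-fold or more, beside 13.7% and 26.6% of all genes. The median log2 ratio was 0.03 beside -0.24 over 13107 genes. The higher ones included Ass1, argininosuccinate synthase, which returns citrulline to arginine (28.6 against 3.94 CPM, 7.26-fold), and Gch1, the first enzyme of tetrahydrobiopterin synthesis (76.9 against 21 CPM, 3.66-fold). Eif5a, the translation factor whose hypusine is made from spermidine, was 1373 against 329 CPM, 4.17-fold higher. Slc7a6, a cationic amino acid exchanger, was 2.67-fold higher. Within the classes these folds differed: Ass1 was 57.6 CPM at day 1 against 43.2 in intact macrophages, on 7 UMIs, and 6.54 against 1.78 in microglia. Gch1 was 147 against 74.0 CPM in macrophages and 31.2 against 16.4 in microglia, so that neither class showed the pooled fold. Lower were Ddah2, of the dimethylarginine hydrolase family, by a ratio of 4.31, Pts, the second enzyme of tetrahydrobiopterin synthesis, by 2.62 and Amd1, S-adenosylmethionine decarboxylase, by 2.01.

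At days 3 and 7 the shares of the 39 that were higher or lower than intact were near those of all genes. The counts were 4 higher (11.4%) and 12 lower (34.3%) of 35 at day 3, beside 9.39% and 30.9%, with a median of -0.50 beside -0.47 over all genes, and 3 higher (8.82%) and 10 lower (29.4%) of 34 at day 7, beside 6.47% and 29.7%, with a median of -0.75 beside -0.60. Under TMM these counts were 7 and 7 at day 3, beside 19.3% and 16.6% of all genes. At day 7 they were 4 and 3 under TMM, beside 16.1% and 10.8%. Ass1 and Gch1 remained among the higher genes, at 3.43-fold and 2.80-fold at day 3 and 3.03-fold and 2.41-fold at day 7. Atp13a2, a lysosomal polyamine exporter, was 3.77-fold and 3.08-fold higher, and Paox, the polyamine oxidase that acts on acetylated polyamines, was 2.24-fold higher at day 3. Ddah2, Amd1, Mat2a (methionine adenosyltransferase) and Slc7a1, the constitutive arginine transporter, were lower at both times, Slc7a1 by ratios of 3.25 and 2.86.

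Between day 1 and day 3, 13 of 35 were lower (37.1%) and 1, Paox (3.597-fold), was higher (2.86%). Of all genes 13.1% were lower and 9.5% higher. The median was -0.59 beside -0.19 over all genes. The lowest ratios were of Prodh (proline dehydrogenase, 3.77-fold lower), Aldh18a1 (first step of proline and ornithine synthesis from glutamate, 3.20-fold), Eif5a (2.77-fold) and Slc7a6 (2.55-fold). Between day 3 and day 7, 0 of 35 passed 2-fold either way, beside 5.99% of all genes higher and 7.35% lower. The median was -0.21 beside -0.12.

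For macrophages against microglia at day 1, 3 of the 34 measured genes were higher (8.82%) and 11 lower (32.4%), near the 12.3% and 26% of all genes. Macrophages had Ass1 8.81-fold above microglia (57.6 against 6.54 CPM), Gch1 4.72-fold (147 against 31.2 CPM) and the spermine oxidase Smox 2.53-fold (162 against 64.3 CPM). The median log2 ratio was -0.61 beside -0.36 over all genes. Gatm, which makes the creatine precursor guanidinoacetate from arginine, was 467 CPM in microglia and 64.4 in macrophages, a ratio of 7.24 (6.72 to 7.82). The vesicular polyamine carrier Slc18b1 was 27.4-fold, Mtap (methylthioadenosine phosphorylase, which clears the by-product of Srm and Sms) 4.10-fold and Slc7a6 3.97-fold higher in microglia. At day 3, 0 of 34 were higher in macrophages and 4 (11.8%) were lower, beside 8.4% and 20.3% of all genes. The median was -0.10 beside -0.23. Of the 4 lower genes, Gatm was lower by a ratio of 3.91, Slc18b1 by 35.5 and Ddah2 by 3.85. The fourth, Pycr1 of proline synthesis, named after its value was seen, rested on 7 and 17 UMIs. Ass1 at day 3 was 15.1 CPM in macrophages and 11.9 in microglia.

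Over the 31 class sums of the time course with at least 50 cells, the order of levels put Arg1 highest in the macrophages of day 1 and then of day 3. For Arg1, 22 of 30 neighbouring pairs in that order overlapped in their intervals, for Sat1 23, for Arg2 and Srm 27, for Odc1 29 and for Sms, Nos2 and Slc7a2 30. The genes most like Arg1, by Pearson's r of log2(CPM + 10) over these sums, were Pf4 (0.89), Clec4n (0.89), Rhov (0.88), F10 (0.87) and Adam8 (0.85). Pf4 is one of the markers that set the macrophage class. Most like Arg2 were Chil3 (0.98) and Gda (0.95), both class markers, and Clec4e (0.97). Srm was followed by Atp5g1 (0.92), Eif5a (0.89) and Clptm1l (0.88), and Odc1 by Pycrl (0.86), Stub1 (0.85) and Mecr (0.85). Sat1 had Nrros (0.88), Slc15a3 (0.86) and Cd300c2 (0.86), Slc7a2 had Rnd3 (0.90), Adamtsl1 (0.84) and Sod3 (0.84), and Sms had Cnp (0.81), Slc38a1 (0.81) and Slain1 (0.79), Cnp being a marker of the oligodendrocyte class. Among the members themselves r was 0.67 for Arg1 with Arg2, 0.60 for Odc1 with Srm, 0.30 for Arg1 with Srm, -0.05 for Arg1 with Odc1 and -0.53 for Odc1 with Sat1. The sums share libraries and their free RNA, and they are not independent.

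In the injected cords, 2 weeks after injury, few arginase molecules were found in phagocytes with either injection. Arg1 in macrophages was 14.4 CPM (10.8 to 18.9; 52 UMIs) with PBS and 7.78 (5.54 to 10.6; 39 UMIs) with MPSS, a ratio of 0.539 (0.347 to 0.832). Over all phagocytes the ratio was 0.691 (0.486 to 0.983). Fibroblasts held 12.5 CPM with PBS and 7.64 with MPSS, so the level in a class that should lack Arg1 was close to that in macrophages in both cords. Arg2 was 1 UMI in PBS phagocytes and 0 in MPSS phagocytes, Srm 11 UMIs in each and Slc7a2 8 and 12. Srm was scarce outside the phagocytes too: fibroblasts held 10 UMIs with PBS and 7 with MPSS, and oligodendrocytes 10 in each. Its low count was thus not particular to phagocytes. None of the 6 measured members was 2-fold apart in phagocytes, where 2.02% of genes were higher with MPSS and 3.6% lower.

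Odc1 differed between the injections in macrophages. There it was 65.0 CPM (56.9 to 73.9) with PBS and 36.9 (31.8 to 42.6) with MPSS, a ratio of 0.568 (0.466 to 0.692). The cells between macrophages and microglia did not share this, with 74.1 CPM (66.4 to 82.5) and 79.0 (72.3 to 86.1), and over all phagocytes the ratio was 0.856 (0.770 to 0.952). T and NK cells had the highest Odc1 of the injected cords, 267 and 212 CPM on 46 and 59 cells, with overlapping intervals. Sms in phagocytes was 20.8 and 17.8 CPM, a ratio of 0.854 (0.703 to 1.04). Of the 39 further genes, 29 were measured, 0 were higher and 2 (6.90%) lower with MPSS, beside 2.02% and 3.6% of all genes. The median log2 ratio was -0.07 beside -0.02 over 10737 genes. Gchfr, the feedback regulator of Gch1, was 3.41 against 7.77 CPM, 2.28-fold lower (1.55 to 3.39), and Ass1, named after its value was seen, rested on 7 and 15 UMIs.

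Sat1 was close between the injections in phagocytes. Phagocytes held 1468 CPM (1443 to 1493) with PBS and 1353 (1333 to 1373) with MPSS, a ratio of 0.921 (0.901 to 0.942). Oligodendrocytes held 565 CPM (538 to 592) with PBS and 904 (879 to 929) with MPSS. A few cells held much of this: the top 10% of cells had 52.0% of the UMIs with PBS and 56.4% with MPSS. The thinned shares of oligodendrocytes with a Sat1 UMI overlapped, at 34.9% (28.8 to 41.5) and 39.5% (34.8 to 44.4). Nos2 in phagocytes was 3 UMIs with PBS and 1 with MPSS, and 0 of these cells had Arg1 as well. It was present instead in neutrophils: 7 of the 24 neutrophils of the PBS cord held 11 UMIs, 155 CPM (77.4 to 278), and 7 of the 16 of the MPSS cord held 14. No Arg1 UMI was found in the 24 neutrophils of the PBS cord, and these classes are too small for a comparison of the injections.

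**Figure D4:**
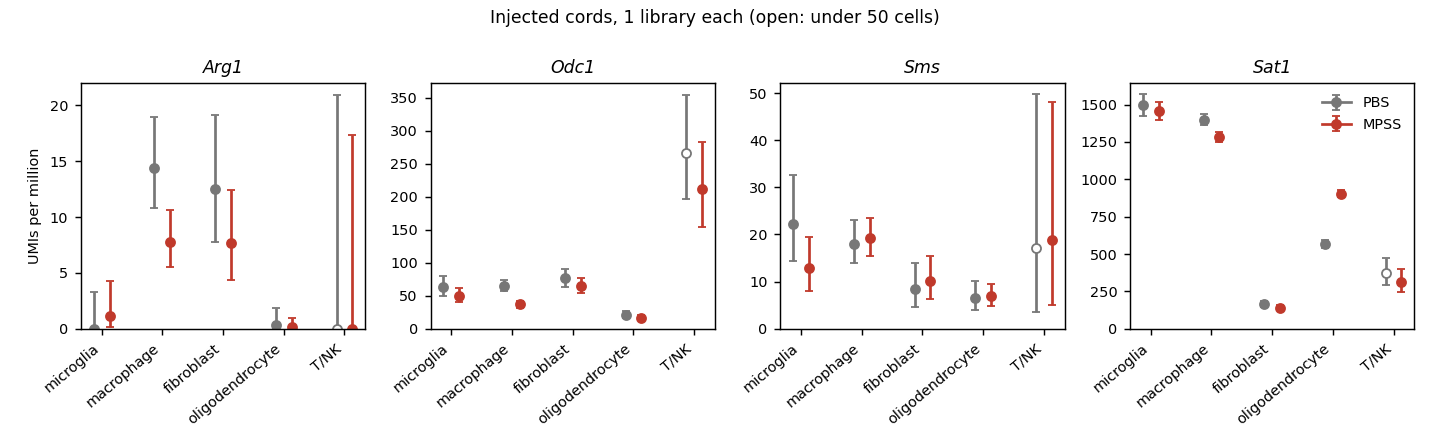
Levels (UMIs per 1000000) of Arg1, Odc1, Sms and Sat1 by class in the PBS (grey) and MPSS (red) libraries, 1 library each, with 95% Poisson intervals and open points for classes with under 50 cells. Odc1 in macrophages stands at 65.0 CPM with PBS and 36.9 with MPSS, and Sat1 in oligodendrocytes at 565 and 904 CPM.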

How the data were processed

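The deposited tables hold whole UMI counts for each gene in each cell. The submitters' processing notes name Cell Ranger 3.0.2, and the matrix headers of the injected cords name 3.1.0. Genome build and cell calling are not given in the sources used here. The 2104 names that the intact and day 1 tables write differently were matched to the other tables.

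A cell was kept with 200 genes or more, 500 UMIs or more and a mitochondrial share of 20% or less. A cell took the class whose markers had the highest mean log2(1 + counts per 10000 UMIs), if that score was at least 0.5 on at least 3 markers. No doublet caller was run: the 40 to 545 cells per library whose second class scored over 0.6 of the first were set aside, and 1 to 96 had no class. Microglia and macrophages needed a score of at least 0.3 on 2 markers and a ratio of 2. The scoring rule was chosen after marker scores were seen. The members, the 39-gene list and the markers were chosen with earlier results of these data known.

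Counts were summed per class and library. Levels have exact Poisson, ratios exact conditional binomial and shares Clopper-Pearson intervals at 95%, for counting error only, with a floor of 3 counts. Of the 39 genes, those with at least 50 UMIs where higher and the 4 highest and 4 lowest ratios past 2-fold are named. Likeness used genes with at least 50 CPM in 1 sum, without mitochondrial, ribosomal protein and haemoglobin genes. Alternatives were TMM (edgeR 4.0.16) and median-of-ratios scaling, other totals, filters, minima, thinning and Leiden classes, and cells of 4000 to 8000 UMIs, added after the depth gap was seen. Steps were tested on simulated data. Python 3.11.15, numpy 2.4.6, scipy 1.17.1, scanpy 1.11.5, leidenalg 0.10.2, matplotlib 3.10.9 and R 4.3.3 were used.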

Additional observations from a re-analysis of the deposited data

How the results depend on the processing

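No paired analysis was possible because each group holds 1 library. Over 50 log2 ratios and 376 alternatives, the sign held in 368 and the value stayed within 1.5-fold in 334. Arg1 at day 7 against intact phagocytes, -1.02, was 0.053 without the highest cell of each library. Sat1 against intact was 0.28 by TMM and 0.24 by median-of-ratios scaling at day 3, and 0.56 and 0.53 at day 7. Arg1 at day 3 against day 1, -1.30, was -1.06 by TMM, -1.11 by median of ratios and -2.07 as a mean over cells. For macrophages against microglia at day 1, Arg1 (5.95) was 5.08 with Leiden classes and 5.17 in cells of 4000 to 8000 UMIs. Srm (-1.68) was -1.86 as a mean over cells and -1.50 in cells of 4000 to 8000 UMIs, where Sat1 was -0.041. The share of phagocytes with Arg1 and Nos2, 0.292% at day 1 and 0 at day 3, was 1.14% and 0.0771% without thinning. Of the 39 further genes, TMM put 3 lower at day 1 against intact, 7 higher and 7 lower at day 3, and 3 lower at day 7. Of all genes TMM put 18.6% lower at day 1, 19.3% higher and 16.6% lower at day 3, and 10.8% lower at day 7. For day 3 against day 1 TMM put 2 of the 39 higher and 7 lower, and no TMM share of all genes is given there. With no minimum count 2 of the 39 were higher and 1 lower at day 7 against day 3. With at least 50 UMIs 1 was lower with MPSS. Causes were not tested. At this depth Nos2 rests on 0 to 78 UMIs per library in phagocytes.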

Other observations

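Among the further pathway genes, the cells outside the phagocytes had patterns of their own, given here as values. At day 3 endothelium held 514 CPM (498 to 530) of Gatm and microglia 198 (192 to 204), whereas at day 1 the order was the other way, 190 (180 to 201) against 467 (456 to 477). Gch1 in endothelium was 111 CPM at day 1 and 113 at day 3, beside 147 and 74.5 in macrophages. Smox in endothelium was 112 CPM at day 1 and 117 at day 3, while macrophages held 162 and 37.7. These genes were picked from the list after their values were seen.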
